A study of Mus musculus with 36 samples.

Results

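The 10 mitochondrially encoded respiratory genes described here were chosen by name, as the Ensembl IDs of the count tables that map to mt-Nd1, mt-Nd2, mt-Nd4, mt-Nd5, mt-Nd6, mt-Cytb, mt-Co1, mt-Co2, mt-Co3 and mt-Atp6. They are 10 of the 13 protein-coding genes and of the 37 genes of the mitochondrial genome, among 51912 gene IDs in the tables. All 10 were found and passed the filter on low counts. The mouse mitochondrial genome is a small circular DNA that encodes subunits of the respiratory complexes together with the rRNAs and tRNAs used to translate them. Both of its strands are transcribed as long precursors, which are cut at the tRNAs into single messages, so neighboring genes start from the same transcript and reach different levels afterwards through processing and decay. Skeletal muscle is rich in mitochondria, and slow, oxidative fibers depend on respiration more than fast, glycolytic fibers do.

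The libraries came from tibialis anterior (TA) and soleus muscles of C57BL/6 male mice aged 3 months. WT mice carry the full-length Musk gene, which encodes a receptor kinase of the neuromuscular synapse. ∆Ig3-MuSK mice carry a CRISPR-Cas9 allele in which exons 6 and 7, encoding the third immunoglobulin domain, are deleted, and are homozygous for it. Each of the 4 groups held 9 libraries, made from whole muscle without strand information, and no mouse received a treatment. Whole muscle holds several cell types, and in such samples fewer cells of a type and less RNA per cell cannot be told apart.

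The libraries held 43492062 to 78660422 counts on genes, and every one of the 10 genes had at least 109957 counts in each library, so counting error was small beside the spread between animals. Levels are given as counts per 1000000 gene counts (CPM). Library sizes were scaled by edgeR's TMM factors for single genes given in CPM, and left unscaled for summed levels and levels per kilobase. Musk was counted over the whole gene, which is not a check of the deleted exons. It lay at 2.87 to 5.58 CPM in the WT TA and 2.62 to 4.01 CPM in the ∆Ig3-MuSK TA, and at 12.5 to 18.4 CPM in the WT soleus and 8.07 to 17.5 CPM in the ∆Ig3-MuSK soleus. Between genotypes its log2 fold change was -0.46 ± 0.12 (SE, edgeR adjusted p = 0.135) for the TA and -0.44 ± 0.13 (SE, edgeR adjusted p = 0.0978) for the soleus. The muscles matched their labels. The summed level of 8 slow fiber genes was 71.3 to 209 CPM over the TA libraries and at least 21430 CPM in each soleus library, while 8 fast fiber genes summed to at least 61340 CPM in each TA library and to at most 41990 CPM in the soleus. In the balance of short and long genes described further on, 3 TA libraries stood apart, namely WT replicates 3 and 5 and ∆Ig3-MuSK replicate 3, and values of the 10 genes that use the TA are also given without these libraries where they moved.

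Of the 10 genes, 9 lie on the plus strand of the annotated genome (GRCm38), in the order mt-Nd1 (chrM:2751-3707), mt-Nd2 (chrM:3914-4951), mt-Co1 (chrM:5328-6872), mt-Co2 (chrM:7013-7696), mt-Atp6 (chrM:7927-8607), mt-Co3 (chrM:8607-9390), mt-Nd4 (chrM:10167-11544), mt-Nd5 (chrM:11742-13565) and mt-Cytb (chrM:14145-15288). mt-Nd6 (chrM:13552-14070) is the single protein-coding gene on the minus strand. Each is a single exon. The genes are packed so tightly that some share bases, and the shared stretches matter because a read inside them belongs to both genes. The following stretches of 60 bases show the ends concerned, in the sequences of the GENCODE transcripts for GRCm38, each read 5′ to 3′ on its own gene's strand. Capitals mark bases shared with the neighboring gene, which are 43 bases with mt-Atp8 at the start of mt-Atp6 and 14 bases between the ends of mt-Nd5 and mt-Nd6. The first line is chrM:7927-7986 (plus), the second chrM:13506-13565 (plus) and the third chrM:13552-13611 (minus).
mt-Atp6: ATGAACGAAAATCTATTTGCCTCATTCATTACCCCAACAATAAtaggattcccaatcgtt
mt-Nd5: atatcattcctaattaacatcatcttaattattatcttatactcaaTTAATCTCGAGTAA
mt-Nd6: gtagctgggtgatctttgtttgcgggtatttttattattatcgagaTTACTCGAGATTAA

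The strand of mt-Nd6 shows in its letters. Read on its own strand, mt-Nd6 held 28.1% G and 5.97% C, whereas the other 9 genes held 8.0% to 16.1% G and 23.8% to 27.7% C. The libraries did not keep strand, so reads could not be assigned by strand over the whole of mt-Nd6, including the 14 bases it shares with mt-Nd5. Counts on mt-Nd6 can therefore include reads of RNA from the opposite strand, and the part of such reads was not tested.

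A second kind of sharing bears on 5 of the genes, mt-Co1, mt-Co2, mt-Atp6, mt-Co3 and mt-Nd4. A stretch of mitochondrial DNA that was inserted into nuclear chromosome 1 is annotated as 6 consecutive genes on its minus strand (chr1:24611535-24616197), of which 5 match these genes and Gm28438 matches mt-Nd3. Gm28661 equals mt-Co2 at all 681 bases compared, Gm10925 equals mt-Atp6 at all 678, Gm28437 equals mt-Co3 at all 783 and Gm28439 equals the first 876 bases of mt-Nd4. Gm29216 covers mt-Co1 from base 1054 and differs from it at 6 of 492 bases, at positions 1056 to 1066 of mt-Co1. The start of the nuclear copy of mt-Atp6 (Gm10925, chr1:24614592-24614651, minus strand) shows that no base separates it from the gene itself.
Gm10925: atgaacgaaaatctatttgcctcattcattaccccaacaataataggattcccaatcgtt

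The copies carried large counts that followed their mitochondrial gene library by library. Gm10925 held 0.938 to 0.965 times the count of mt-Atp6 in each of the 36 libraries, Gm28437 held 0.936 to 0.961 times that of mt-Co3, and Gm28661 held 0.932 to 0.956 times that of mt-Co2. The partial copies had smaller ratios, 0.468 to 0.535 for Gm28439 against mt-Nd4 and 0.226 to 0.366 for Gm29216 against mt-Co1. Together the 6 copies took 4.30% to 7.78% of all gene counts. The ratios for the 3 full-length copies were higher in every TA library than in any soleus library, as for Gm28437 with 0.958 to 0.961 in the TA and 0.936 to 0.943 in the soleus. How reads that match both places were counted is not given in the sources used here, so the levels of these 5 genes are uncertain. The summed share, the composition and the order of levels are therefore also given with the copies added, and the summed share and the mt-Nd6 share also within mt-Nd1, mt-Nd2, mt-Nd5, mt-Nd6 and mt-Cytb, which have no such copy. The plot of copy counts against gene counts shows that the ratios hardly vary among libraries of a muscle.

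**Figure D1:**
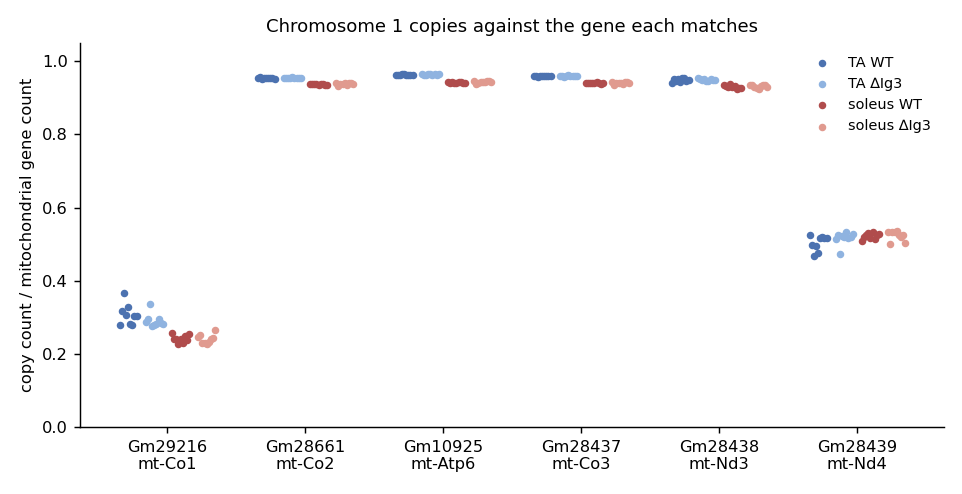
Ratio of the count on each chromosome 1 copy (upper name) to the count on the mitochondrial gene it matches (lower name), on the vertical axis, with 1 point per library and 9 libraries per group. The sixth copy matches mt-Nd3. The copies of mt-Co2, mt-Atp6 and mt-Co3 lie between 0.932 and 0.965 in all libraries, and the partial copies of mt-Co1 and mt-Nd4 lie between 0.226 and 0.535.

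Summed over the 10 genes, a large share of all gene counts came from these messages in every library. In the WT TA the summed share was 10.5% at the lowest, 13.7% at the median and 15.9% at the highest, and in the ∆Ig3-MuSK TA it was 10.2%, 13.1% and 14.6%. In the WT soleus it was 11.04%, 12.4% and 13.9%, and in the ∆Ig3-MuSK soleus it was 12.2%, 13.2% and 14.8%. All 4 groups overlapped, and 4 of the 9 ∆Ig3-MuSK soleus libraries lay above the highest WT soleus library.

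**Figure D2:**
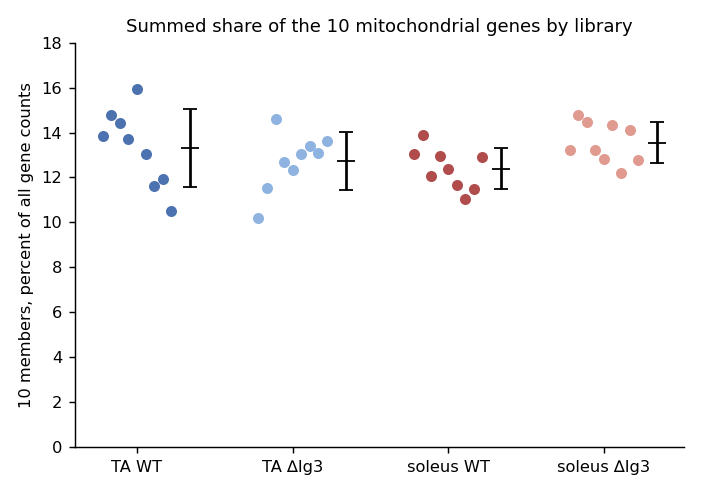
Percent of all gene counts on the 10 mitochondrial genes (vertical axis) in each of the 36 libraries by group, with the mean ± SD beside each group of 9. The ∆Ig3-MuSK soleus libraries sit between 12.2% and 14.8%, and the WT soleus libraries between 11.04% and 13.9%.

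The first comparison asked whether the Ig3 deletion moved these messages in the soleus. The summed share was higher in the ∆Ig3-MuSK soleus, at 13.5% ± 0.897 (SD, n = 9) against 12.4% ± 0.913 (SD, n = 9) in WT, a difference of 1.16 percentage points with 8 of 9 ∆Ig3-MuSK libraries above the WT mean (exact permutation test, 2-sided, p = 0.0162, adjusted p = 0.0339 over the 25 exact tests run on the 10 genes). The 5 genes that have no chromosome 1 copy gave a difference of 0.429 points (adjusted p = 0.0387, exact permutation test). The 10 genes with all 6 copies added, including that of mt-Nd3, gave 1.64 points (adjusted p = 0.0332, exact permutation test). The 25 tests include the comparisons between muscles, whose small p lowered the adjusted p of the genotype comparisons. No adjustment over the genotype comparisons alone was made. The difference was close to the limit. It stayed above 0, between 0.995 and 1.35 points when each library was left out, with adjusted p from 0.0127 to 0.0682, and passed 0.05 no longer without WT replicate 3, 6, 7 or 8 or without ∆Ig3-MuSK replicate 2, 3, 6 or 8.

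Gene by gene, the shift was small and none of the 10 passed the test across all genes. edgeR's quasi-likelihood test, which called genes at an adjusted p under 0.05 and at least 1.2-fold, called 0 of the 10 in the soleus against a background of 0.952% of 19439 genes tested. All 10 log2 fold changes were above 0, between 0.17 and 0.28 with a median of 0.23 beside a median of -0.00 over all genes tested, and 9 of the 10 had an unadjusted p under 0.05. The direction was the same for all 10 genes in each of 28 alternative fits. The genes share transcripts, libraries and scaling, so they are not 10 separate observations.

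mt-Nd6, a complex I subunit and the member encoded on the opposite strand, had the smallest p. It took 0.344%, 0.381% and 0.443% of all counts in the lowest, median and highest WT soleus library, and 0.368%, 0.432% and 0.501% in the ∆Ig3-MuSK soleus. The groups overlapped, with 4 of 9 ∆Ig3-MuSK libraries above all WT libraries. Its log2 fold change was 0.28 ± 0.09 (SE, edgeR adjusted p = 0.104). It passed in DESeq2 (adjusted p = 0.0401) and in limma-voom with quality weights (adjusted p = 0.0308), and over its 28 alternatives the adjusted p ran from 0.0308 to 0.184.

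Among the other complex I subunits in the soleus, mt-Nd4 changed by 0.23 ± 0.08 (log2, SE, edgeR adjusted p = 0.135) and mt-Nd5 by 0.23 ± 0.08 (edgeR adjusted p = 0.148). mt-Nd1 and mt-Nd2, which lie nearest the start of the long transcript, had log2 fold changes of 0.20 each, with edgeR adjusted p of 0.253 and 0.230. mt-Cytb, the only mitochondrially encoded subunit of complex III, took a median of 1.24% of counts in WT and 1.35% in ∆Ig3-MuSK and did not pass the test (log2 fold change 0.23 ± 0.08, edgeR adjusted p = 0.133). mt-Atp6, the proton channel subunit of the ATP synthase, had 0.23 ± 0.09 (edgeR adjusted p = 0.171). The 3 catalytic-core subunits of cytochrome c oxidase differed least for mt-Co1 (0.17 ± 0.08, edgeR adjusted p = 0.270) and had 0.21 for mt-Co2 and 0.24 for mt-Co3. The 10 estimates thus lay within about 1 standard error of their median.

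The remaining 27 genes of the mitochondrial genome also lay above 0 in the ∆Ig3-MuSK soleus, with a median log2 fold change of 0.26, and 5 of the 27 were called higher and 0 lower. The smallest p belonged to the alanine tRNA gene mt-Ta (log2 fold change 0.38 ± 0.07, edgeR adjusted p = 0.0185) and the asparagine tRNA gene mt-Tn (0.37 ± 0.08, edgeR adjusted p = 0.0318). Counts on tRNA genes that abut a message include reads that run over the boundary, so tRNA rows are not measures of mature tRNA. mt-Rnr2, the large rRNA, had 0.29 ± 0.10 (edgeR adjusted p = 0.131).

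The nuclear genes that complete the same complexes moved less. Of 80 nuclear subunits of complexes I to V, 69 had a log2 fold change above 0 in the ∆Ig3-MuSK soleus, with a median of 0.05, and 0 were called. Atp5b, the catalytic β subunit of the ATP synthase, had 0.06 ± 0.05 (edgeR adjusted p = 0.567), and Cox4i1, a structural subunit of cytochrome c oxidase, had 0.06 ± 0.06 (edgeR adjusted p = 0.628). None of the 16 genes for mitochondrial DNA replication and transcription was called, although all 16 lay above 0 with a median of 0.05. Of 16 genes for mitochondrial RNA processing and stability, 10 lay above 0 and 0 were called, and of 14 regulators of mitochondrial biogenesis, 6 lay above 0 and 0 were called.

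Other measures differed between the soleus groups beside the mitochondrial share. Total counts were higher in the ∆Ig3-MuSK soleus (medians 51110940 and 45371395, exact permutation test, 2-sided, p = 0.00893). The 8 fast fiber genes all had log2 fold changes above 0 (median 0.25, 0 called), their summed level running from 28720 to 38070 CPM against 22040 to 41990 CPM in WT, whereas 4 of 8 slow fiber genes lay above 0 (median -0.02, 0 called; summed level 22870 to 31080 CPM against 21430 to 33900 CPM). All 5 endothelial, 5 macrophage and 5 fibroblast genes lay below 0, with medians of -0.20, -0.41 and -0.20 and 0 called, and their summed levels were 203 to 320, 15.3 to 100 and 316 to 993 CPM against 239 to 365, 54.0 to 170 and 569 to 1885 CPM in WT. The 4 adipocyte genes tested of 5, and all 5 red blood cell and 4 Schwann cell genes, lay above 0, with medians of 0.54, 0.29 and 0.21 and 0 called, and summed to 16.2 to 226.8, 587.1 to 2353 and 64.1 to 113.5 CPM against 46.2 to 247.7, 716.4 to 1150 and 67.02 to 99.62 CPM in WT. No gene of these lists was at 0 in all libraries. The part of these values in the mitochondrial share was not tested.

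In the TA the deletion gave no difference beyond the spread. The summed share was 12.7% ± 1.28 (SD, n = 9) in ∆Ig3-MuSK and 13.3% ± 1.72 (SD, n = 9) in WT, a difference of -0.576 points (exact permutation test, 2-sided, p = 0.430, adjusted p = 0.448). It was -0.277 points without the 3 libraries that stood apart and ran from -0.928 to -0.247 points when each library was left out. edgeR called 0 of the 10 genes, beside a background of 0.0149% of 20075 genes, and 0 of the 10 had an unadjusted p under 0.05; DESeq2 and limma-voom also called 0. The log2 fold changes ran from -0.21 (mt-Co3) to 0.07 (mt-Nd5) with a median of -0.12, and 1 of the 10 lay above 0. The median was -0.05 without the 3 libraries that stood apart, and over the alternative fits it ran from -0.177 (without WT replicate 9) to -0.0451 (without WT replicate 5). That number was 1 to 3 of 10 in the alternative fits, where mt-Nd4 changed sign, to 0.03 when scaled by library size alone.

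The values in the TA followed gene length. Across the 10 genes the log2 fold change in the TA correlated with length (Pearson r = 0.765, Spearman rho = 0.685, n = 10 genes of the same libraries, as a description), with r = 0.679 and rho = 0.552 without the 3 libraries that stood apart. Nuclear genes had higher medians at greater lengths, over a wider range. Their median log2 fold change was -0.15 over 441 protein-coding genes with under 1000 exonic bases and 0.12 over 2536 with 8000 or more. Without those 3 libraries these medians were -0.09 (445 genes) and 0.08 (2545 genes). In the soleus the same medians were 0.04 (424 genes) and -0.02 (2527 genes). The 10 genes have 519 to 1824 bases. For 1659 nuclear genes of 1000 to under 2000 bases the TA median was -0.13, close to that of the shorter genes. It was -0.08 (1676 genes) without the 3 libraries. Nuclear subunits of the respiratory complexes, which are mostly short, lay above 0 in the TA for 1 of 80, with a median of -0.23 and 0 called, and for 0 of 80, with a median of -0.15 and 0 called, without the 3 libraries. The part of gene length in these values was not tested.

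Whether the genotype difference itself differed between muscles was tested directly. Within the 8 label numbers of each genotype that had a library of both muscles, the soleus minus TA difference of the summed share averaged 0.432 ± 1.06 points (SD, n = 8 numbers) in ∆Ig3-MuSK and -1.04 ± 1.75 points (SD, n = 8 numbers) in WT. It was above 0 for 5 of 8 ∆Ig3-MuSK and 1 of 8 WT numbers, and the 2 sets of numbers overlapped. The difference of 1.48 points did not pass the test (exact permutation test, 2-sided, p = 0.0617, adjusted p = 0.110), and it was 0.878 points (adjusted p = 0.277, exact permutation test) without the numbers of the 3 TA libraries that stood apart. In the quasi-likelihood fit over 36 libraries, 0 of the 10 genes were called for the interaction beside 0% of 20841 genes tested, of which 2850 higher and 2343 lower had an unadjusted p under 0.05. DESeq2 called 578 genes higher and 277 lower and limma-voom 401 and 558. All 10 estimates lay above 0, from 0.17 (mt-Nd5) to 0.46 (mt-Co3) with a median of 0.36, and 8 of 10 had an unadjusted p under 0.05. Of the 10, DESeq2 called mt-Co3 (adjusted p = 0.0442) and mt-Atp6 (adjusted p = 0.0480), and limma-voom called 0. Scaled by library size alone, the median over all genes was -0.14 and that of the 10 genes 0.20. All 80 nuclear subunits had interaction estimates above 0 as well, with a median of 0.29, and 0 were called.

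**Figure D3:**
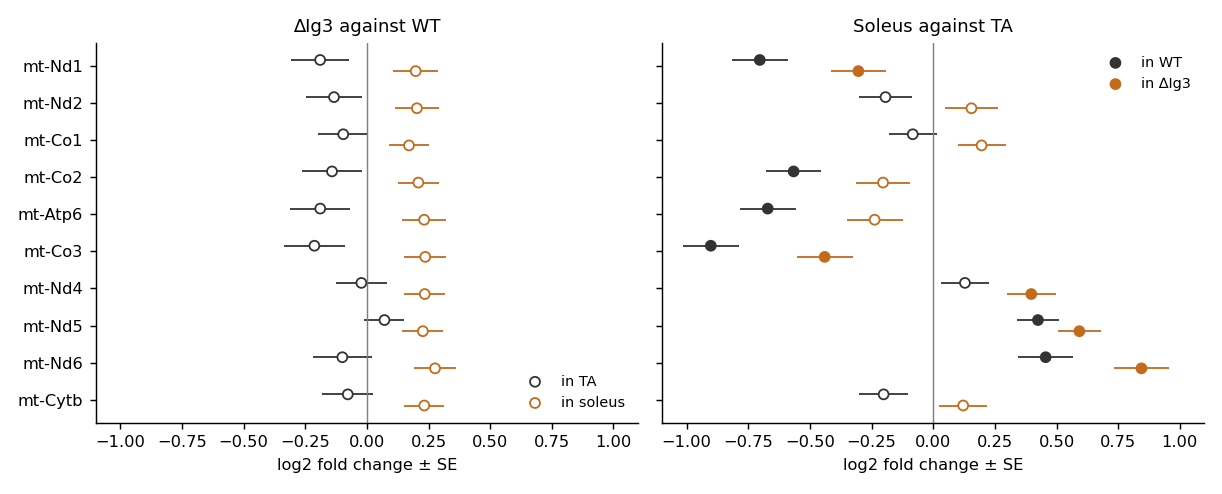
Log2 fold change ± SE (horizontal axis) of the 10 genes in genome order, for ∆Ig3-MuSK against WT within each muscle (left, 9 libraries per group) and for soleus against TA within each genotype (right). Filled points passed the edgeR test, which were 0 on the left and, on the right, 6 in WT and 5 in ∆Ig3-MuSK.

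The largest differences lay between the muscles, and they ran in opposite directions for different genes of the same transcript. In WT, edgeR called 6 of the 10 genes between soleus and TA, beside a background of 57.5% of 20841 genes (30.2% higher and 27.3% lower), with mt-Nd5 and mt-Nd6 higher and mt-Nd1, mt-Co2, mt-Atp6 and mt-Co3 lower in the soleus. In ∆Ig3-MuSK it called 5, beside a background of 56.1% (28.5% higher and 27.6% lower), with mt-Nd4, mt-Nd5 and mt-Nd6 higher and mt-Nd1 and mt-Co3 lower. Both counts were the same without the 3 TA libraries that stood apart and with the copies added to their genes. A share of 6 or 5 in 10 is near the background, so the number of calls says nothing particular about these genes, and the values of each gene are what follows.

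mt-Co3, the third core subunit of cytochrome c oxidase, differed most in WT. It took 1.47%, 1.85% and 2.45% of counts in the lowest, median and highest WT TA library and 1.04%, 1.13% and 1.28% in the WT soleus, so that the groups did not overlap. The log2 fold change was -0.90 ± 0.11 (SE, edgeR adjusted p = 8.05e-09). In ∆Ig3-MuSK the range was 1.29% to 2.07% in the TA and 1.15% to 1.45% in the soleus, with 5 of 9 soleus libraries below all TA libraries, and the log2 fold change was -0.44 ± 0.11 (edgeR adjusted p = 0.000854).

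mt-Nd6 moved the other way. It took 0.185%, 0.246% and 0.321% of counts in the WT TA and 0.344%, 0.381% and 0.443% in the WT soleus, and 0.190%, 0.238% and 0.282% in the ∆Ig3-MuSK TA against 0.368%, 0.432% and 0.501% in the ∆Ig3-MuSK soleus. The muscles did not overlap in either genotype. The log2 fold changes were 0.46 ± 0.11 in WT (edgeR adjusted p = 0.000458) and 0.84 ± 0.11 in ∆Ig3-MuSK (edgeR adjusted p = 2.40e-08).

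mt-Nd5, the longest of the genes and a proton-pumping subunit of complex I, was likewise higher in every soleus library than in any TA library of its genotype. Its share was 0.477%, 0.630% and 0.696% in the WT TA and 0.804%, 0.927% and 1.06% in the WT soleus, and the log2 fold changes were 0.42 ± 0.09 in WT (edgeR adjusted p = 4.51e-05) and 0.59 ± 0.09 in ∆Ig3-MuSK (edgeR adjusted p = 1.775e-07). mt-Nd4, its neighbor, had a log2 fold change of 0.13 ± 0.10 in WT (edgeR adjusted p = 0.249) and 0.40 ± 0.10 in ∆Ig3-MuSK (edgeR adjusted p = 0.000585). By contrast mt-Nd1, also of complex I, was lower in the soleus, at -0.70 ± 0.11 in WT (edgeR adjusted p = 1.12e-06) and -0.30 ± 0.11 in ∆Ig3-MuSK (edgeR adjusted p = 0.0178).

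mt-Atp6 and mt-Co2 were lower in the WT soleus, at -0.67 ± 0.11 (edgeR adjusted p = 2.78e-06) and -0.57 ± 0.11 (edgeR adjusted p = 2.93e-05), and did not pass in ∆Ig3-MuSK, where they had -0.24 ± 0.11 (edgeR adjusted p = 0.0634) and -0.20 ± 0.11 (edgeR adjusted p = 0.105). The interaction, given above, did not pass for either gene in edgeR. mt-Nd2, mt-Cytb and mt-Co1 were called in neither genotype and lay between -0.20 and -0.08 in WT and between 0.12 and 0.20 in ∆Ig3-MuSK. Scaling by library size alone moved the median of all genes in WT from 0.02 to 0.20, and with it mt-Co1 from -0.08 to 0.11. mt-Nd4 was then called too, at 0.32.

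Because the genes moved in opposite directions, the summed share hid most of the difference between muscles. It was lower by 0.922 points in the WT soleus than in the WT TA (exact permutation test, 2-sided, p = 0.175, adjusted p = 0.223) and higher by 0.817 points in the ∆Ig3-MuSK soleus than in the ∆Ig3-MuSK TA (p = 0.137, adjusted p = 0.201, exact permutation test). Without the 3 TA libraries that stood apart the differences were -0.387 points (adjusted p = 0.552, exact permutation test) and 1.054 points (adjusted p = 0.0864, exact permutation test), and they ran from -1.27 to -0.593 points and from 0.5005 to 1.054 points when each library was left out. These comparisons also depended on the chromosome 1 copies. With all 6 copies added, including that of mt-Nd3, the WT difference was -2.57 points (adjusted p = 0.0389, exact permutation test). The ∆Ig3-MuSK difference was then 0.114 points (adjusted p = 0.891, exact permutation test). For the 5 genes with no copy they were 0.0855 points (adjusted p = 0.681, exact permutation test) and 0.619 points (adjusted p = 0.00439, exact permutation test).

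The composition within the 10 genes separated the muscles clearly. As a share of the counts of the 10 genes, which does not depend on how libraries are scaled to each other, 8 of the 10 genes had no overlap between the TA and soleus libraries in WT, and 8 in ∆Ig3-MuSK. mt-Nd2 and mt-Cytb overlapped in both, but with the copies added to their genes all 10 were apart in both genotypes. As a share of all counts, 3 of the 10 were apart in each genotype. Portions of a set add up to the whole, so lower portions for some genes raise others. How many of all genes lie apart was not determined, so the numbers apart have no background of their own. Between muscles 57.5% of all genes were called in WT and 56.1% in ∆Ig3-MuSK, which is a different measure. Complex I subunits made up 27.9% ± 1.19 (SD, n = 9) of the counts of the 10 genes in the WT TA and 32.6% ± 0.559 (SD, n = 9) in the WT soleus, and 28.6% ± 0.851 against 32.9% ± 0.768 in ∆Ig3-MuSK. Every soleus library lay above every TA library of its genotype, and p was 4.11e-05 in both genotypes (adjusted p = 0.000129, exact permutation test), the smallest value that 48620 assignments allow. With the copies added the complex I portions were 21.5% and 27.3% in WT and 22.4% and 27.5% in ∆Ig3-MuSK.

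The other complexes took correspondingly different portions. mt-Atp6, which alone stands for complex V here, fell from 12.7% ± 1.03 (SD, n = 9) in the WT TA to 9.75% ± 0.195 (SD, n = 9) in the WT soleus, and was 12.1% ± 0.622 and 9.91% ± 0.295 in ∆Ig3-MuSK. The 3 genes of complex IV made up 50.1% ± 0.603 in the WT TA and 47.8% ± 0.648 in the WT soleus, and 49.6% ± 0.852 against 47.1% ± 0.825 in ∆Ig3-MuSK. All 4 of these differences had an adjusted p of 0.000129 (exact permutation test). With the copies added, complex V took 16.9% and 13.7% and complex IV 55.2% and 51.8% in WT, and complex V 16.3% and 14.0% and complex IV 54.6% and 51.2% in ∆Ig3-MuSK, and the test gave the same adjusted p for each. Within complex IV the genes diverged, mt-Co1 taking 26.3% in the WT TA and 30.5% in the WT soleus while mt-Co3 took 14.1% and 9.27%. mt-Cytb of complex III differed least, with 9.32% ± 0.438 and 9.92% ± 0.207 in WT (adjusted p = 0.00350, exact permutation test) and 9.61% ± 0.215 and 10.1% ± 0.107 in ∆Ig3-MuSK (adjusted p = 0.000229, exact permutation test).

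**Figure D4:**
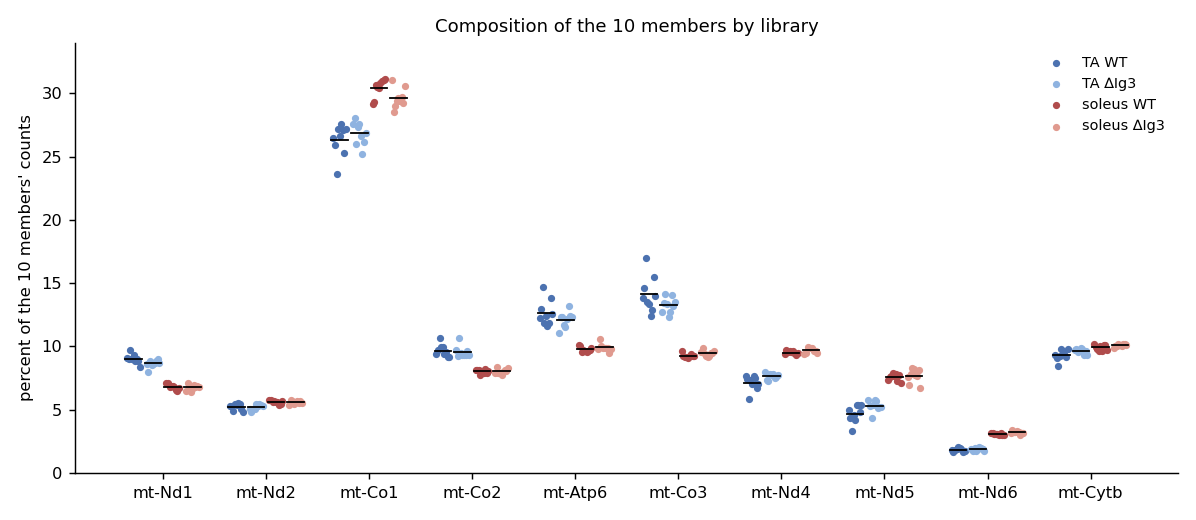
Percent of the counts of the 10 genes that lies on each gene (vertical axis), with 1 point per library, 9 libraries per group, and the group mean as a bar, in genome order. mt-Co3 has a mean of 14.1% in the WT TA and 9.27% in the WT soleus, mt-Co1 of 26.3% and 30.5%, and mt-Nd2 and mt-Cytb overlap between muscles.

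mt-Nd6 stood out in this composition as well, as counts on its stretch of the genome without regard to strand. Its share of the 10 genes was 1.65%, 1.78% and 2.01% in the lowest, median and highest WT TA library and 2.96%, 3.08% and 3.18% in the WT soleus, with 1.70%, 1.88% and 2.03% in the ∆Ig3-MuSK TA and 3.02%, 3.26% and 3.40% in the ∆Ig3-MuSK soleus. The muscles lay far apart (adjusted p = 0.000129 in both genotypes, exact permutation test). Within the soleus the share was also higher in ∆Ig3-MuSK, at 3.22% ± 0.108 (SD, n = 9) against 3.08% ± 0.0785 (SD, n = 9), with 6 of 9 ∆Ig3-MuSK libraries above all WT libraries (p = 0.00675, adjusted p = 0.0153, exact permutation test, 2-sided; adjusted p from 0.00257 to 0.0321 when each library was left out). It was 2.34% against 2.24% with the copies added (adjusted p = 0.0201, exact permutation test) and, as a share of the 5 genes with no copy, 9.67% against 9.34% (adjusted p = 0.0383, exact permutation test). As for the summed share, the comparisons between muscles in the same adjustment lowered these adjusted p. In the TA the genotypes had 1.86% ± 0.116 and 1.83% ± 0.132 (adjusted p = 0.573, exact permutation test). None of the complex shares passed between genotypes in either muscle, where the smallest adjusted p was 0.0930 (mt-Cytb in the soleus, 10.1% against 9.92%, exact permutation test), and it was 0.0312 without WT soleus replicate 1. The complex IV share in the soleus differed by -0.674 points (adjusted p = 0.121, exact permutation test), and passed without ∆Ig3-MuSK replicate 1 (-0.841 points, adjusted p = 0.0468) or replicate 9 (-0.854 points, adjusted p = 0.0392).

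Gene length ordered the differences between muscles. Among the 9 plus-strand genes the soleus against TA log2 fold change correlated with length at r = 0.904 (rho = 0.833) in WT and r = 0.891 (rho = 0.833) in ∆Ig3-MuSK. The genes share libraries and transcripts and number 9, so these are descriptions. mt-Nd6, with 519 bases the shortest, lay outside this order in both genotypes, and with it r was 0.469 and 0.349 over 10 genes. With the copies added r over the 9 genes was 0.890 and 0.878, and without the 3 TA libraries that stood apart it was 0.896 and 0.884. GC content gave r = -0.220 and -0.258 over the same 9 genes, and the start position on the genome gave r = 0.411 and 0.412.

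**Figure D5:**
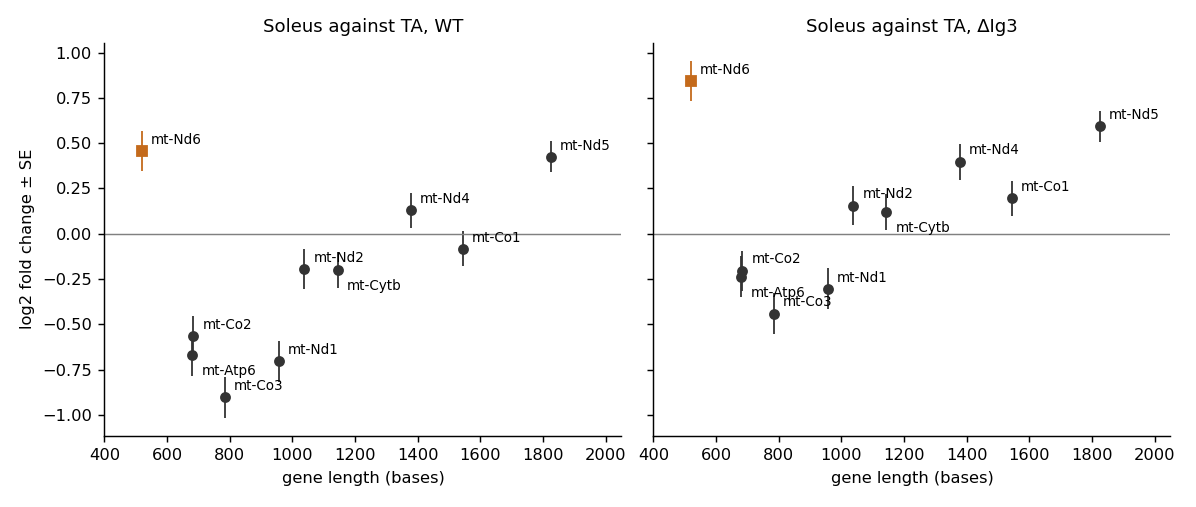
Soleus against TA log2 fold change ± SE (vertical axis) against gene length in bases (horizontal axis) for WT and ∆Ig3-MuSK. The 9 plus-strand genes are circles, with r = 0.904 in WT and 0.891 in ∆Ig3-MuSK, and mt-Nd6 on the minus strand is the square at 519 bases.

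Among nuclear genes the medians were higher for longer genes in WT. The median soleus against TA log2 fold change was -0.16 for 470 protein-coding genes with under 1000 exonic bases and 0.13 for 2572 genes with 8000 or more, and in ∆Ig3-MuSK these medians were 0.03 and -0.02. Without the 3 TA libraries that stood apart they were -0.07 and 0.06 in WT and 0.06 and -0.06 in ∆Ig3-MuSK. The mitochondrial genes of ∆Ig3-MuSK followed length between muscles as given above, beside these nuclear medians. For 1737 nuclear genes of 1000 to under 2000 bases the median was -0.15 in WT and -0.03 in ∆Ig3-MuSK. In WT it was -0.10 (1745 genes) without the 3 libraries. The part of gene length in the values of the 10 genes was not tested. Nuclear medians were not divided more finely over the 519 to 1824 bases of the 10 genes. To follow this by library, the median log2 level of 262 nuclear genes with under 1000 exonic bases was set against that of 6559 genes with 4000 or more, each relative to its mean over all libraries. This index ran from -0.0510 to 0.667 in the WT TA, with WT replicates 5 and 3 highest at 0.667 and 0.559, from -0.150 to 0.287 in the ∆Ig3-MuSK TA, with replicate 3 highest, from -0.152 to 0.0424 in the WT soleus and from -0.182 to 0.173 in the ∆Ig3-MuSK soleus.

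The ratio of mt-Co3 to mt-Nd5, a short gene against a long one, moved with that index among libraries of a group. The ratio was 2.33, 2.94 and 5.13 in the lowest, median and highest WT TA library, 2.15, 2.52 and 3.28 in the ∆Ig3-MuSK TA, 1.17, 1.2 and 1.31 in the WT soleus and 1.11, 1.21 and 1.44 in the ∆Ig3-MuSK soleus, with no overlap between muscles. With the copies added, the ratio ran from 4.56 to 10.04 in the WT TA, from 4.21 to 6.41 in the ∆Ig3-MuSK TA, from 2.27 to 2.54 in the WT soleus and from 2.15 to 2.79 in the ∆Ig3-MuSK soleus. The log2 ratio of the genes as deposited correlated with the index at r = 0.742 and rho = 0.733 in the WT TA (permutation p adjusted over 12 relations, 0.0480 for r and 0.0918 for rho), r = 0.810 and rho = 0.5 in the ∆Ig3-MuSK TA (0.0480 and 0.265), r = 0.710 and rho = 0.817 in the WT soleus (0.0510 and 0.0440) and r = 0.828 and rho = 0.817 in the ∆Ig3-MuSK soleus (0.0319 and 0.0440). Without the 2 libraries farthest from the median index, r was 0.751, 0.00184, 0.519 and 0.625, so in the ∆Ig3-MuSK TA the relation rested on those libraries. This relation was looked for after the values were seen. TA and soleus libraries are held in separate tables, so any difference in preparation or sequencing between them and the muscle itself cannot be told apart.

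The levels per length ranked the genes differently in the muscles. On the scale of CPM per kilobase of gene length, mt-Atp6 and mt-Co3 led in the WT TA with 24791 ± 4015 and 24002 ± 4179 (SD, n = 9), followed by mt-Co1 with 22653 ± 2846. mt-Co3 and mt-Co1 did not differ beyond their spread there, as 5 of 9 libraries had mt-Co3 the higher. In the WT soleus mt-Co1 led with 24387 ± 1448, above mt-Atp6 with 17758 ± 1608 in 9 of 9 libraries, and mt-Co3 and mt-Co2 with 14653 ± 1114 and 14541 ± 1113 were indistinguishable (5 of 9 libraries had mt-Co3 the higher). mt-Nd5 was lowest in all 4 groups, at 3379 ± 385 in the WT TA, 3676 ± 279 in the ∆Ig3-MuSK TA, 5138 ± 402 in the WT soleus and 5694 ± 533 in the ∆Ig3-MuSK soleus. The highest gene stood 7.34 times above mt-Nd5 in the WT TA and 4.75 times in the WT soleus, so the spread of levels along the genome was narrower in the soleus. These levels count the 5 genes with a chromosome 1 copy as deposited, without their copies, and the order of the leading genes depended on that. With the copies added mt-Atp6 led in both muscles, at 48655 ± 7875 in the WT TA and 34479 ± 3114 in the WT soleus, where it stood above mt-Co1 with 30316 ± 1840 in 9 of 9 libraries, and mt-Co1 fell to the fourth place in the TA. The highest gene was then 14.4 times mt-Nd5 in the WT TA and 6.71 times in the WT soleus.

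Between those ends the order was shared in part, again for the counts as deposited. mt-Nd1 and mt-Cytb held the fifth and sixth places in the TA, with 12596 ± 1983 and 10826 ± 1405 in WT, and changed places in the soleus, with 8825 ± 889 and 10737 ± 815. mt-Nd4 and mt-Nd2 followed in the WT TA with 6877 ± 1004 and 6721 ± 1011, where 7 of 9 libraries had mt-Nd4 the higher. mt-Nd6 stood below mt-Nd2 in each of 9 WT TA libraries, at 4693 ± 761, and above it in each of 9 WT soleus libraries, at 7354 ± 634 against 6698 ± 654. In the ∆Ig3-MuSK soleus mt-Nd1 and mt-Nd4, at 9582 ± 869 and 9528 ± 698, did not differ beyond their spread. With its copy added mt-Nd4 was higher than mt-Nd1 and mt-Cytb in each of 9 libraries of both soleus groups, at 13028 ± 1053 in WT and 14514 ± 1081 in ∆Ig3-MuSK.

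Among the other mitochondrial genes, 3 of 27 were called higher and 16 lower in the WT soleus than in the WT TA, and 8 higher and 9 lower in ∆Ig3-MuSK, beside the backgrounds of 57.5% and 56.1% of all genes called. mt-Atp8, which shares the 43 capital bases shown above with mt-Atp6, had -0.66 ± 0.10 in WT (edgeR adjusted p = 3.39e-07) and -0.30 ± 0.10 in ∆Ig3-MuSK (edgeR adjusted p = 0.00952), close to mt-Atp6 itself. mt-Nd3, the short complex I gene between mt-Co3 and mt-Nd4, had -1.30 ± 0.13 in WT (edgeR adjusted p = 2.43e-11). mt-Tf, the phenylalanine tRNA gene at the start of the transcript, had -2.78 ± 0.26 in WT (edgeR adjusted p = 6.34e-12) and -2.42 ± 0.26 in ∆Ig3-MuSK (edgeR adjusted p = 1.78e-10). Its level was near the floor, with means of 4.34 CPM in the WT TA and 0.629 CPM in the WT soleus, and 3.60 and 0.670 CPM in ∆Ig3-MuSK.

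The nuclear subunits were compared side by side. In WT, 5 of 80 were called higher and 37 lower in the soleus, with a median of -0.24, and in ∆Ig3-MuSK 25 were called higher and 7 lower, with a median of 0.07. Without the 3 TA libraries that stood apart these counts were 13 higher and 23 lower in WT (median -0.13) and 27 and 7 in ∆Ig3-MuSK (median 0.11). The number called in either direction lay below the background of 57.5% and 56.1% of all genes. By direction the backgrounds were 30.2% higher and 27.3% lower in WT, and 28.5% and 27.6% in ∆Ig3-MuSK. The calls of the subunits leaned to lower in WT and to higher in ∆Ig3-MuSK, less so in WT without the 3 TA libraries. The subunits share libraries and scaling, so they are not separate observations, and this lean was not tested. These contrasts use different libraries of each genotype. In complex I, Ndufb2, an accessory subunit, had -0.96 ± 0.09 in WT (edgeR adjusted p = 9.48e-12), and Ndufb3, another accessory subunit, had 0.91 ± 0.09 in ∆Ig3-MuSK (edgeR adjusted p = 9.68e-12). Complex II, which has no mitochondrially encoded subunit, had Sdhc higher in both genotypes (0.41 ± 0.06, edgeR adjusted p = 3.14e-07, and 0.66 ± 0.06, edgeR adjusted p = 1.02e-11). In complex V, Atp5a1, the α subunit of the catalytic head, was higher in both (0.43 ± 0.05, edgeR adjusted p = 7.59e-09, and 0.53 ± 0.05, edgeR adjusted p = 7.46e-11).

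Genes that act on the mitochondrial genome and its RNA were called in numbers that stand beside the same backgrounds of 57.5% in WT and 56.1% in ∆Ig3-MuSK. The number called in either direction says nothing particular about these lists. By direction, calls in the WT soleus leaned to lower for replication and transcription and for assembly factors, and to higher for biogenesis regulators. The WT backgrounds were 30.2% higher and 27.3% lower, and this lean was not tested. Of 16 genes for replication and transcription, 0 were called higher and 7 lower in the WT soleus, among them Mgme1, a mitochondrial DNA exonuclease (-0.70 ± 0.05, edgeR adjusted p = 4.33e-14), and Tfb2m, a transcription factor of the mitochondrial polymerase (-0.39 ± 0.05, edgeR adjusted p = 1.36e-08). Of 16 genes for RNA processing and stability, 5 were called higher and 4 lower, with Supv3l1, the helicase of the mitochondrial RNA degradosome, at 0.53 ± 0.05 (edgeR adjusted p = 6.48e-11), Grsf1, an RNA granule protein known to bind G-rich RNA such as that of the minus-strand gene, at 0.43 ± 0.05 (edgeR adjusted p = 2.30e-09), and Rexo2, a mitochondrial oligoribonuclease, at -0.65 ± 0.05 (edgeR adjusted p = 3.89e-14). Of 11 translation factors, 3 were called higher and 4 lower. Of 35 assembly factors, 2 were called higher and 16 lower, Coa7, a cytochrome c oxidase assembly factor, at -0.80 ± 0.04 (edgeR adjusted p = 1.97e-18). Of 14 biogenesis regulators, 6 were called higher and 1 lower, with the nuclear receptors Esrrb (3.09 ± 0.11, edgeR adjusted p = 1.11e-23) and Esrrg (2.77 ± 0.11, edgeR adjusted p = 4.59e-23) in front. In ∆Ig3-MuSK the same lists had 1 higher and 4 lower for replication and transcription, 5 and 1 for RNA processing, 3 and 2 for translation factors, 3 and 10 for assembly factors and 5 and 1 for biogenesis regulators.

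Across libraries, the summed share varied with the nuclear subunits in the WT soleus. The summed level of the 80 nuclear subunits, scaled on nuclear genes, correlated with the summed share of the 10 genes at r = 0.900 and rho = 0.933 in the WT soleus (9 libraries, permutation p adjusted over 12 relations, 0.0128 for r and 0.00708 for rho), and r was 0.854 without the 2 libraries farthest from the median. In the WT TA it was r = 0.749 and rho = 0.700 (adjusted permutation p 0.0480 and 0.105) and 0.486 without those 2 libraries. In the ∆Ig3-MuSK groups it was r = 0.596 and rho = 0.233 in the TA (adjusted permutation p 0.181 and 0.659) and r = 0.538 and rho = 0.550 in the soleus (0.181 and 0.231), and without the 2 farthest libraries r was -0.522 and 0.0755, so no relation held there. Total counts gave r of 0.0591 (rho -0.117) in the WT TA and -0.200 (rho -0.0667) in the WT soleus, and r of -0.0987 (rho -0.317) in the TA and 0.590 (rho 0.633) in the soleus of ∆Ig3-MuSK mice, and none of these had an adjusted permutation p under 0.151.

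The genes whose levels varied most like the sum of the 10 were ranked over 8115 nuclear genes by the lower of the TA and soleus correlations, each over 18 libraries after the genotype means were removed. The first 5 were Gm28661 (0.980), Gm10925 (0.942), Atp5c1 (0.933), Gm28437 (0.926) and Gm28438 (0.911), of which 4 are chromosome 1 copies. Gm28661, Gm10925 and Gm28437 share their sequence with genes of the set, and Gm28438 matches mt-Nd3, which is outside it. Atp5c1, the central stalk subunit of the ATP synthase, was the highest gene that is not a copy, with 0.933 in each muscle. Ndufv2, a core subunit of complex I, had 0.880 in the TA and 0.950 in the soleus, and Sucla2, a subunit of the citric acid cycle enzyme succinyl-CoA synthetase, had 0.884 and 0.880; both were named after their values were seen. The 80 nuclear subunits had a median of 0.729 (TA) and 0.723 (soleus), beside 0.132 and 0.201 over all genes ranked. The libraries of a muscle share their scaling and its length index, and these correlations are descriptions.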

How the data were processed

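RNA from whole TA and soleus muscles was prepared as non-stranded libraries. Per the labels and the study's methods, the authors trimmed reads with Trimmomatic, checked them with FastQC, aligned them to the GRCm38 mouse genome with GSNAP and SAMtools, and deposited raw counts per Ensembl gene from HTSeq, in 1 table per muscle. Versions, the annotation release and the handling of reads that match several places are not given in the sources used here. No table column belonged to another sample.

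Groups came from the labels, with 9 libraries each. The 10 genes and all gene lists were chosen with earlier results of these data known. Symbols, coordinates and transcript sequences came from the GENCODE vM21 annotation of GRCm38, which gave a symbol for 51633 of 51912 IDs. The counts, as deposited, were fitted with edgeR 4.0.16 (R 4.3.3; filterByExpr, TMM scaling, quasi-likelihood test), per muscle for the genotypes and over 36 libraries for the muscles and the interaction, in which libraries of a label number were not blocked. P-values were adjusted by Benjamini-Hochberg over all genes tested, and a gene was called at an adjusted p under 0.05 and at least 1.2-fold. DESeq2 1.42.0 and limma 3.58.1 were alternatives, with other scaling, no filter, blocks, and each library left out. Shares of counts, computed with Python 3.11.15, were compared with exact permutation tests, 2-sided, adjusted over 25 tests. Correlations used 100000 permutations. Named genes were the 10, the 2 genes of each other list with the highest mean level, the 2 with the smallest p in each comparison where any was called, and the 5 most alike in level. On counts simulated from these libraries, the fits recovered 73% of genes changed 1.5-fold in the TA, 74% in the soleus, 70% between muscles in WT and 55% for the interaction.

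Depth was 43492062 to 78660422 counts. A replicate number that recurs in the titles of both genotypes names different animals. The study describes 1 muscle per animal, while the label numbers recur in both muscles, so whether a number marks 1 animal is not settled. Nothing in the labels says that libraries of a group are other than separate mice, and p-values measure the spread between them.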

Additional observations from a re-analysis of the deposited data

Results flagged for a closer look

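Of 96 groups of 9 values checked (shares, composition and ratios, which overlap in what they measure), 7 held a library whose gap to its nearest neighbor exceeded Dixon's critical value for its share of the range, and chance gives about 1 such group in 20. ∆Ig3-MuSK TA replicate 3 was highest for mt-Co2 both as a share of all counts (1.56%) and of the 10 genes (10.7%), and lowest for mt-Nd5 as a share of the 10 genes (4.32%). WT TA replicate 3 was lowest for mt-Nd4 as a share of the 10 genes (5.83%) and had the highest ratio of mt-Co3 to mt-Nd5 (5.13). These are 2 of the 3 TA libraries that also stood apart in the index of short to long nuclear genes. The other 2 values were the lowest mt-Nd1 share of the 10 genes in ∆Ig3-MuSK TA replicate 2 (7.99%) and the highest mt-Atp6 share of the 10 genes in ∆Ig3-MuSK soleus replicate 2 (10.6%).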

How the results depend on the processing

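Of the values that answer a comparison, 139 settings other than leaving out a library kept direction and side of the threshold. The number of the 10 genes called in the soleus between genotypes was 1 (mt-Nd6) with DESeq2, limma-voom and a block of title replicate numbers, which pairs different animals. It was 0 to 1 when each library was left out, with 1 without WT replicate 1 or 2 or ∆Ig3-MuSK replicate 7. The number called for the interaction was 2 with DESeq2. The summed share between muscles in WT was -2.57 points with all 6 chromosome 1 copies added and 0.0855 points for the 5 genes that have no copy. In ∆Ig3-MuSK it was 0.619 points for those 5 genes. All alternatives with the copies or without 3 TA libraries were chosen after seeing the data. When each library was left out, the soleus genotype difference ran from 0.995 to 1.35 points for the summed share, from 0.130 to 0.202 for the complex III share and from -0.854 to -0.575 for the complex IV share. The causes of these moves were not tested.

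Among single genes, mt-Nd4 in the TA turned to 0.0344 (library size alone), 0.0214 (limma-voom) and 0.0121 (without 3 TA libraries). When each library was left out it ran from -0.0769 to 0.0390, above 0 without WT replicate 2 or 5 or ∆Ig3-MuSK replicate 1, and mt-Cytb ran from -0.123 to 0.00162, above 0 without WT replicate 5. mt-Co1 between muscles in WT turned to 0.11 with library size alone. That scaling changed the calls over all genes from 71 higher and 114 lower to 48 and 269 in the soleus genotype comparison, and from 6297 and 5682 to 8638 and 3615 between muscles in WT.

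Samples with the same title replicate number were different animals and did not deviate together. Their correlation was over 0.1 for 2 of 9 TA and 3 of 9 soleus pairs, with medians of -0.0486 and 0.0487. For samples with the same label number it was over 0.1 for 4 of 8 WT and 7 of 8 ∆Ig3-MuSK pairs. Every label number pair lay above 0, from 0.0221 to 0.21 in WT and from 0.058 to 0.466 in ∆Ig3-MuSK. Whether a label number pairs the samples was not settled. Blocked differences of the summed share used an exact sign-flip test of paired differences. Paired by title replicate number, which joins different animals, they were -0.576 points in the TA (sign-flip adjusted p = 0.513) and 1.16 in the soleus (sign-flip adjusted p = 0.0163). Paired by label number, they were -1.04 between muscles in WT (sign-flip adjusted p = 0.195) and 0.432 in ∆Ig3-MuSK (sign-flip adjusted p = 0.323). With no block the interaction was 1.74 (random permutation test, p = 0.0420, adjusted p = 0.0807). With the block of label numbers, 6 of the 10 genes were called between muscles in ∆Ig3-MuSK, adding mt-Atp6 (-0.30), 6 in WT and 0 for the interaction. With the block of title replicate numbers, 0 were called between genotypes in the TA. Depth did not limit these counts, but assignment of reads between 5 of the genes and their copies does.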

Other observations

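The rRNAs, made from the same strand as most of the messages, took small shares of these libraries. Together mt-Rnr1 and mt-Rnr2 held 0.434% ± 0.0661 (SD, n = 9) of counts in the WT TA, 0.394% ± 0.0703 in the ∆Ig3-MuSK TA, 0.393% ± 0.0467 in the WT soleus and 0.444% ± 0.0722 in the ∆Ig3-MuSK soleus, with overlap among all 4 groups. The 22 tRNA genes held 0.443% ± 0.0925, 0.415% ± 0.0714, 0.413% ± 0.0277 and 0.466% ± 0.0362 in the same order. These shares were not tested.

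The 6 chromosome 1 copies moved with the genes they match. Between muscles in WT, 5 of the 6 were called lower in the soleus, with a median log2 fold change of -0.65, and in ∆Ig3-MuSK 1 was called higher and 3 lower, with a median of -0.25. Of all genes, 27.3% were called lower in WT, and 28.5% higher and 27.6% lower in ∆Ig3-MuSK. The copies share sequence with the genes they match, so they are not separate observations. Between genotypes 0 were called in either muscle by edgeR, with medians of -0.18 in the TA and 0.23 in the soleus.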
